A study of Citrus maxima and Citrus sinensis with 8 samples.

Results

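Genes of phosphate transport were followed in citrus roots, with 3 annotated as phosphate transporters (Cs9g18560, Cs5g29860 and Cs3g27660), 1 as a mitochondrial phosphate carrier (Cs7g19830) and 1 as a Na+/Pi symporter (Cs2g04480). They are 5 of the 30151 genes in the files. They are the phosphate transport genes that the study listed among the low-phosphorus-responsive genes changed by aluminum (Al), so they were selected on their fold change between +Al and control roots of these same libraries. Their response, and their difference between the species, which includes the same +Al libraries, are therefore given as a description, without a test. Other genes of the pathway were tested.

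RNA was sequenced from root tips of seedlings of 2 citrus species, Citrus grandis, labelled as Al-intolerant, and Citrus sinensis, labelled as Al-tolerant. Seedlings received nutrient solution with 1.0 mM AlCl3 (+Al) or 0 mM (control) for 18 weeks. The groups were +Al C. grandis roots, control C. grandis roots, +Al C. sinensis roots and control C. sinensis roots, with 2 libraries each, and each library pooled the roots of 5 seedlings. The p-values measure the spread between pooled libraries, which limma steadies with the spread of other genes. That shared part counted for 36.2 degrees of freedom in the C. grandis Al fit and for 3.50 in that of C. sinensis. After median-ratio rescaling it was 3.17 in C. grandis. The sizes of p are therefore not comparable between the species. Levels are in FPKM, the number of sequenced fragments scaled for transcript length and for the size of the library. A gene was called at a limma adjusted p (Benjamini-Hochberg) of at most 0.05 together with a log2 difference of at least 1 up or down. The share of all genes whose groups of 2 libraries do not overlap is not given, so a lack of overlap is a description only.

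As background, inorganic phosphate (Pi) is scarce in soil solution, and root cells take it up with protons through high-affinity transporters of the plasma membrane, which are driven by proton pumps. Mitochondrial carriers bring Pi into the matrix for ATP synthesis. In Arabidopsis, the transcription factor PHR1 activates genes of Pi starvation, SPX proteins restrain it when Pi is ample, and the ubiquitin-conjugating enzyme PHO2 removes Pi transporters. Al binds Pi in acid soils and on root surfaces, which makes Pi supply a recurrent theme of Al toxicity.

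Of the 5 genes, Cs5g29860 was also followed by PCR in the study, and its primers are shown because they are the only part of these genes whose bases are given in the sources used here. The forward primer has 19 bases with 42.1% G and C and the reverse primer has 18 bases with 44.4%. No base is capitalized, since no single part of a primer matters here. No PCR value was used.
Cs5g29860 forward: ggtgataagttgggtagaa
Cs5g29860 reverse: cagaaacgaaagaagcag

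The depth differed between the libraries. The FPKM of all genes summed to 713378 in +Al C. grandis replicate 1, which also had the lowest relative depth (0.705 of the deepest library), and to between 795854 and 859570 in the other 7 libraries. The median difference over genes between replicate 2 and replicate 1 of +Al C. grandis roots was 0.39 on the log2 scale. Values of +Al C. grandis roots below are given for both replicates for that reason. All 4 root apex markers, matched by keyword, reached a mean of 1 FPKM in every group. They are annotated as scarecrow-like or root cap proteins, and whether they mark the root apex in citrus was not tested. Their summed level was 60.8 to 85.9 FPKM in +Al C. grandis roots, against 95.3 to 101.9 FPKM in control C. grandis roots, and 55.3 to 58.6 FPKM in +Al C. sinensis roots, against 63.8 to 64.1 FPKM in control C. sinensis roots. The 23 leaf markers summed to 101.9 to 108 FPKM in +Al C. grandis roots, against 94.7 to 95.7 FPKM in control C. grandis roots, and to 69.5 to 70.9 FPKM in +Al C. sinensis roots, against 86.3 to 87.3 FPKM in control C. sinensis roots, with medians of 0.487 to 1.26 FPKM over the groups. The 25 xylem and endodermis markers had a median of 4.603 FPKM in +Al C. grandis roots, against 8.44 FPKM in control C. grandis roots, and of 7.74 FPKM in +Al C. sinensis roots, against 8.07 FPKM in control C. sinensis roots. Their summed level was 988.9 to 1113 FPKM in +Al C. grandis roots, against 982.8 to 1096 FPKM in control C. grandis roots, which overlapped. In C. sinensis it was 992.7 to 1028 FPKM in +Al roots, against 1053 to 1090 FPKM in control roots. The 4 root hair markers summed to 54.7 to 75.25 FPKM in +Al C. grandis roots, against 67.6 to 77.2 FPKM in control C. grandis roots. In C. sinensis they summed to 77.3 to 78.2 FPKM in +Al roots, against 74.1 to 74.4 FPKM in control roots. The part of any of these marker lists in the results was not tested. In pooled root tips, fewer cells of a type and less RNA per cell cannot be told apart.

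Cs9g18560, a phosphate transporter, was low in all 4 +Al libraries. It had 11.1 and 4.09 FPKM in +Al C. grandis roots, against 101 and 125 FPKM in control C. grandis roots. In C. sinensis it had 9.72 and 10.3 FPKM in +Al roots, against 53.3 and 52.3 FPKM in control roots. The groups did not overlap in either species. The mean was 7.62 ± 4.99 FPKM in +Al C. grandis roots and 113 ± 16.95 FPKM in control C. grandis roots (SD, n = 2 each), which is 14.8 times as much in the control. In C. sinensis the means were 10.02 ± 0.42 FPKM in +Al roots and 52.8 ± 0.77 FPKM in control roots (SD, n = 2 each), 5.27 times as much in the control. On the log2(FPKM + 0.1) scale the change was -4.03 (SE 0.32) in C. grandis and -2.39 (SE 0.073) in C. sinensis. In C. grandis it ranged between -4.75 and -3.32 when 1 library was left out, since the +Al replicates differed from each other. Cs9g18560 ranked above 93.0% to 94.7% of the genes above 0 in control C. grandis libraries and above only 34.5% to 59.5% in the +Al ones.

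Cs5g29860, another phosphate transporter, had the highest level of the 5 genes in C. sinensis. It had 38.9 and 51.3 FPKM in +Al C. grandis roots, against 47.3 and 45.5 FPKM in control C. grandis roots, and these groups overlapped. In C. sinensis it had 146 and 165 FPKM in +Al roots, against 70.8 and 74.2 FPKM in control roots, without overlap. The means were 45.1 ± 8.73 FPKM in +Al and 46.4 ± 1.30 FPKM in control C. grandis roots (SD, n = 2 each). In C. sinensis they were 156 ± 13.2 FPKM in +Al and 72.5 ± 2.40 FPKM in control roots (SD, n = 2 each), a ratio of 2.14. The log2 change was -0.054 (SE 0.26) in C. grandis and 1.10 (SE 0.074) in C. sinensis. In +Al C. sinensis roots Cs5g29860 was above 95.5% to 96.1% of the genes detected.

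Cs3g27660, the remaining phosphate transporter, was the one that was high in +Al C. grandis roots. It had 49.9 and 84.7 FPKM in +Al C. grandis roots, against 15.0 and 13.2 FPKM in control C. grandis roots. In C. sinensis it had 11.6 and 10.1 FPKM in +Al roots, against 9.71 and 9.09 FPKM in control roots. Neither pair of groups overlapped, but the gap in C. sinensis was a fraction of 1 FPKM between the nearest libraries. The means were 67.3 ± 24.7 FPKM in +Al and 14.1 ± 1.23 FPKM in control C. grandis roots (SD, n = 2 each), a ratio of 4.77. In C. sinensis they were 10.8 ± 1.10 FPKM in +Al and 9.40 ± 0.43 FPKM in control roots (SD, n = 2 each), a ratio of 1.15. The log2 change was 2.20 (SE 0.28) in C. grandis and 0.20 (SE 0.12) in C. sinensis.

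**Figure D1:**
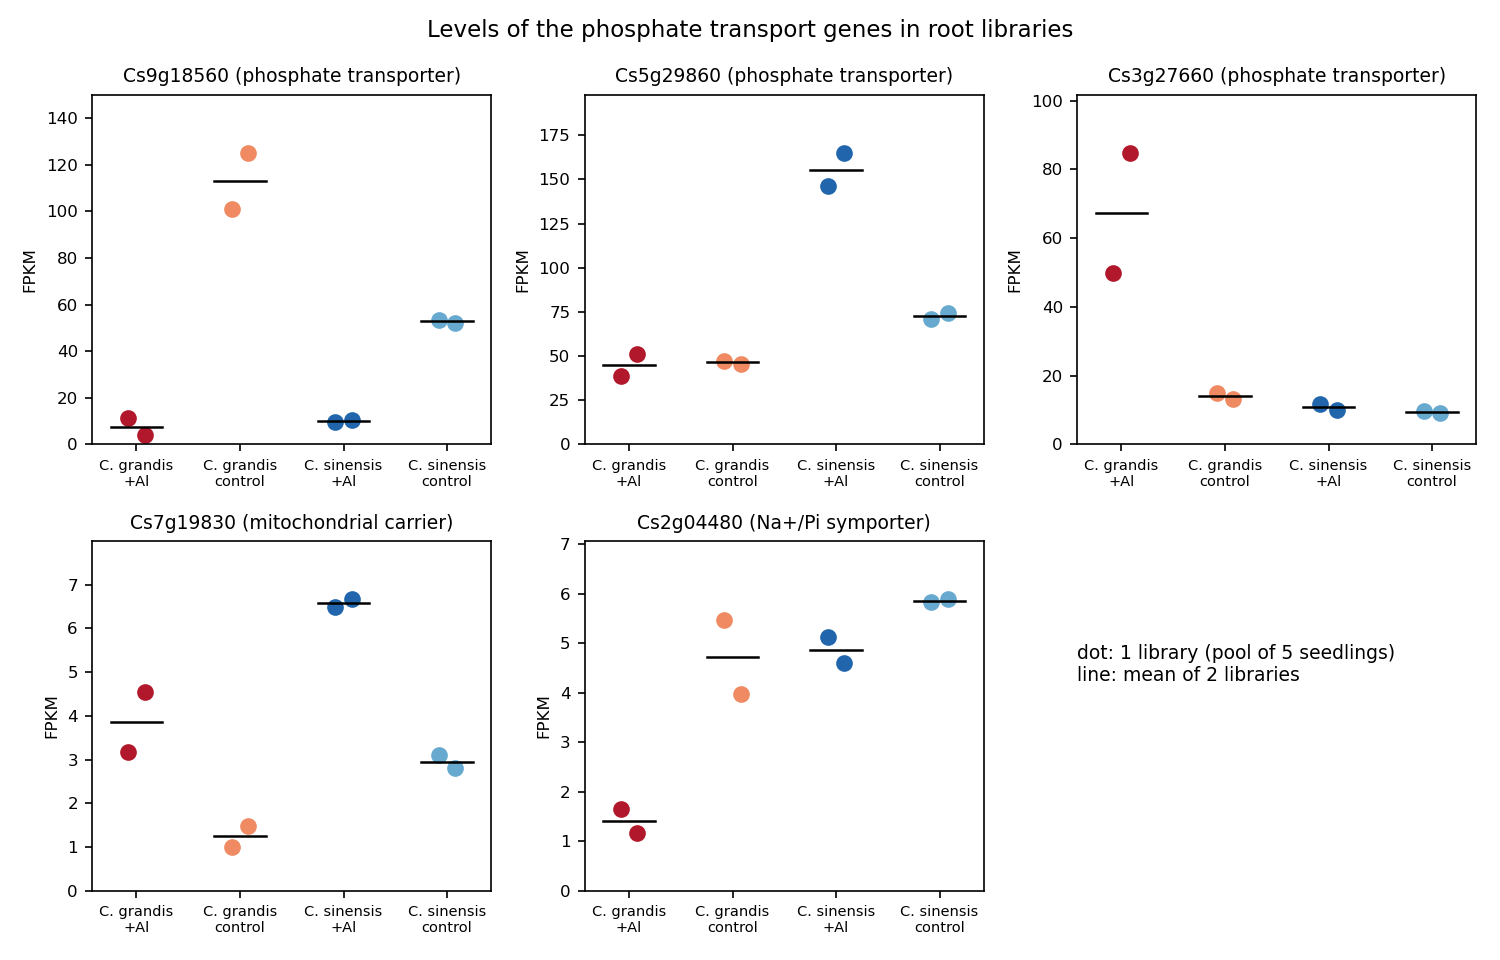
FPKM (vertical axes, from 0) of the 5 phosphate transport genes in the 8 root libraries, with +Al left of control in each species. Dots are libraries and lines are means of 2. Cs9g18560 lies between 4.09 and 11.1 FPKM in every +Al library, Cs5g29860 is highest in +Al C. sinensis roots and Cs3g27660 is highest in +Al C. grandis roots.

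Cs7g19830, the mitochondrial phosphate carrier, was higher under Al in both species, at low levels. It had 3.18 and 4.55 FPKM in +Al C. grandis roots, against 0.988 and 1.49 FPKM in control C. grandis roots. In C. sinensis it had 6.50 and 6.66 FPKM in +Al roots, against 3.10 and 2.80 FPKM in control roots. The groups did not overlap in either species. The log2 change was 1.57 (SE 0.48) in C. grandis and 1.13 (SE 0.15) in C. sinensis, and the pseudocount of 0.1 lowers it at such levels. The ratio of means was 3.12 in C. grandis and 2.23 in C. sinensis.

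Cs2g04480, the Na+/Pi symporter, was lower in +Al C. grandis roots. It had 1.65 and 1.15 FPKM in +Al C. grandis roots, against 5.46 and 3.98 FPKM in control C. grandis roots. In C. sinensis it had 5.12 and 4.59 FPKM in +Al roots, against 5.83 and 5.88 FPKM in control roots. The groups did not overlap in either species, and the +Al C. grandis libraries were the lowest of the 8. The log2 change was -1.69 (SE 0.45) in C. grandis and -0.27 (SE 0.13) in C. sinensis, and the control mean was 3.37 and 1.21 times the +Al mean in these species.

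By limma at the study's numeric limits, which differs from the count test that chose them, 2 of the 5 genes were higher and 2 were lower in +Al C. grandis roots, and 2 were higher and 1 was lower in +Al C. sinensis roots. Over all genes tested, the calls made up 12.5% for C. grandis (5.2% higher and 7.25% lower) and 8.53% for C. sinensis (4.46% higher and 4.06% lower). Nothing is read from the comparison with those shares, because the rule used the response to Al. With a pseudocount of 1 the change of Cs7g19830 in C. sinensis was 0.94, below the limit, which leaves 1 gene higher there. The members nearest the limit of 1 on the log2 scale were Cs5g29860 at 1.10 and Cs7g19830 at 1.13 in C. sinensis. Just outside it lay Cs8g01230, annotated as phosphate transporter 3,3, at 0.79 in C. sinensis.

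The 3 phosphate transporters were also summed, and the share of each gene in the sum was computed. The summed level was 99.9 and 140 FPKM in +Al C. grandis roots, against 163 and 184 FPKM in control C. grandis roots. In C. sinensis the sum was 167.5 and 185 FPKM in +Al roots, against 134 and 136 FPKM in control roots. So the sum was lower with Al in C. grandis and higher with Al in C. sinensis, without overlap in either. The 3 genes were chosen on their response to Al, so this is a description.

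Each of the 3 genes held the largest share in some group. Cs3g27660 made up 49.9% to 60.5% of the sum in +Al C. grandis roots, against 7.21% to 9.17% in control C. grandis roots. Cs9g18560 made up 2.92% to 11.2% in +Al C. grandis roots, against 61.9% to 68.0% in control C. grandis roots. Cs5g29860 made up 87.3% to 89.0% in +Al C. sinensis roots, against 52.9% to 54.8% in control C. sinensis roots. In +Al C. sinensis roots Cs9g18560 held 5.57% to 5.80%, against 38.5% to 39.8% in control C. sinensis roots. Cs3g27660 stayed between 5.43% and 7.25% in all C. sinensis libraries.

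**Figure D2:**
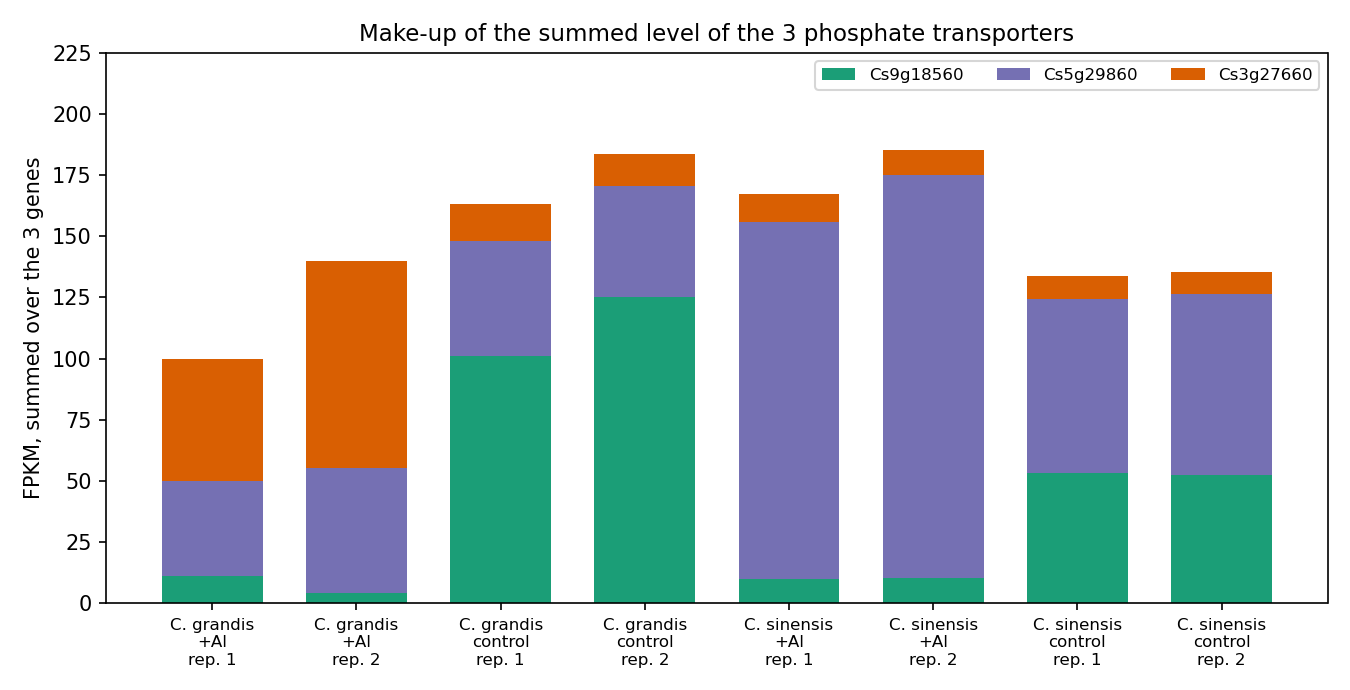
Summed FPKM of the 3 phosphate transporters in each of the 8 libraries (vertical axis, from 0), with the part of each gene in color and +Al left of control in each species. Cs9g18560 holds 61.9% to 68.0% in control C. grandis roots and at most 11.2% in any +Al library, where Cs3g27660 (C. grandis) or Cs5g29860 (C. sinensis) holds the largest part.

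Ratios within a library do not depend on how libraries were scaled. Cs3g27660 over Cs5g29860 was 1.28 and 1.65 in +Al C. grandis roots, against 0.317 and 0.291 in control C. grandis roots. In C. sinensis this ratio was 0.0794 and 0.0610 in +Al roots, against 0.137 and 0.123 in control roots. It was thus higher with Al in C. grandis and lower with Al in C. sinensis, without overlap.

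The difference in the response to Al between the species, C. grandis minus C. sinensis on the log2 scale, is built from the contrasts that chose the genes and is given as a description. By the same limits 1 of the 5 genes was higher and 2 were lower in it, where 5.13% and 8.36% of all genes tested were called, from which nothing is read. Without +Al C. grandis replicate 1 the value of Cs5g29860, 1 of the 2 lower genes, was -0.95, below the limit. The difference in response was 1.998 (SE 0.35) for Cs3g27660 and 0.44 (SE 0.40) for Cs7g19830. It was -1.15 (SE 0.21) for Cs5g29860, -1.42 (SE 0.37) for Cs2g04480 and -1.65 (SE 0.55) for Cs9g18560. The value of Cs9g18560 lay between -2.36 and -0.94 with 1 library left out, at -2.36 without +Al C. grandis replicate 1 and -0.94 without replicate 2.

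The mean level over both treatments was also set side by side between the species. It includes the +Al libraries that chose the genes, so no p is given for it. By the same limits the difference, C. grandis minus C. sinensis, was past them for 3 of the 5 genes, with 1 higher and 2 lower in C. grandis, where 24.6% of all genes tested were called (9.02% higher and 15.6% lower), and nothing is read from this. Reads of both species were mapped to the C. sinensis genome, so a lower level in C. grandis cannot be told apart from divergence of the gene.

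Cs3g27660 was higher in C. grandis by 1.58 on the log2 scale (SE 0.17). In control roots alone it had 1.501 times the level in C. grandis as in C. sinensis, and in +Al roots 6.21 times. Cs5g29860 was lower in C. grandis, with a log2 difference of -1.22 (SE 0.11). Its level was 3.45 times as high in C. sinensis in +Al roots and 1.56 times in control roots, without overlap in either.

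Cs2g04480 was lower in C. grandis with a log2 difference of -1.03 (SE 0.18), which lies on the limit of 1. Its level was 3.47 times as high in C. sinensis in +Al roots and 1.24 times in control roots. The difference was -0.97 after median-ratio rescaling and -0.78 with a pseudocount of 1, both below the limit. Leaving out +Al C. sinensis replicate 1, +Al C. grandis replicate 2 or control C. grandis replicate 2 also took it below the limit, to -0.99, -0.91 and -0.92. Cs7g19830 had a log2 difference of -0.99 (SE 0.20), just short of the limit, and its libraries did not overlap between the species in either treatment. It was past the limit at -1.03 with a pseudocount of 0.01, and at -1.003, -1.03, -1.12 and -1.13 without +Al C. sinensis replicate 1, control C. sinensis replicate 2, +Al C. grandis replicate 2 and control C. grandis replicate 2.

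Cs9g18560 had a log2 difference of 0.26 (SE 0.27), about as large as its error. Its level in control roots was 2.14 times as high in C. grandis as in C. sinensis without overlap, whereas the +Al libraries of the species overlapped. Without +Al C. grandis replicate 1 the difference was -0.092, on the other side of 0.

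**Figure D3:**
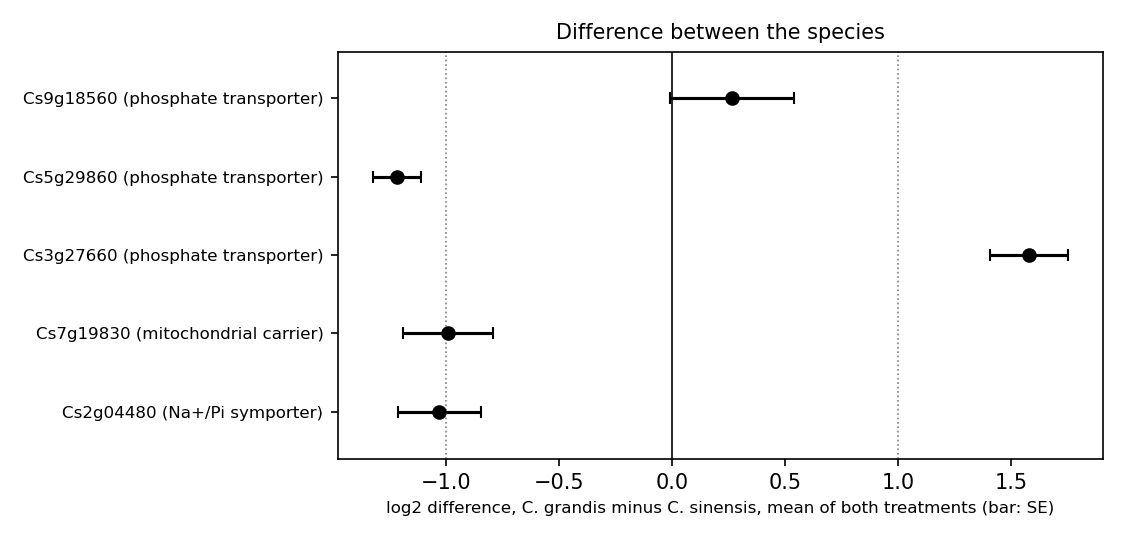
Difference in level between the species (horizontal axis, log2 of FPKM + 0.1, C. grandis minus C. sinensis, mean over both treatments) for the 5 genes. Points are estimates, bars are standard errors and dotted lines mark the limit of 1. Cs3g27660 is higher in C. grandis at 1.58 and Cs5g29860 is lower at -1.22.

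The other genes annotated as Pi transporters or carriers were taken from a keyword list of 15, of which 10 were not among the 5 and 9 of those were tested. One of them, Cs9g04580, is annotated as a carrier of thiamine pyrophosphate and not of Pi. None of the 9 was called for Al in either species by limma. The 5 are the Pi transport genes that the study called for Al in these same libraries, at the same numeric limits. The 9 are those left over, so a lack of calls among them was nearly given and nothing is read from it. The shares and medians for the 9 are a description. At an unadjusted limma p under 0.05, C. grandis had 0 and C. sinensis had 4, and 3 in C. sinensis had an adjusted p of at most 0.05 with a change below the limit of 1. Over all genes tested, 26.4% in C. grandis and 46.6% in C. sinensis had an unadjusted p under 0.05. The 9 genes' median log2 change was -0.0053 in C. grandis and 0.38 in C. sinensis, against -0.014 and -0.0019 over all genes tested.

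Cs2g14350, the most abundant mitochondrial phosphate carrier, had 132.5 and 147.5 FPKM in +Al C. grandis roots, against 182 and 188 FPKM in control C. grandis roots. Its C. sinensis levels were 233 and 243 FPKM in +Al roots, against 186 and 181 FPKM in control roots. It supplied 94.7% to 98.0% of the summed FPKM of the 4 Pi carriers annotated as mitochondrial in every library, and Cs7g19830 0.532% to 2.96%. These were picked by that word, so Cs8g01230, annotated as phosphate transporter 3,3, is not in the sum. The libraries were apart in opposite directions in the species, and the difference in response was -0.78 (SE 0.14, limma adjusted p = 0.0092), below the limit of 1.

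Cs7g19840, whose ID follows that of Cs7g19830 and which is also annotated as mitochondrial, had 0.831 and 0.221 FPKM in +Al C. grandis roots, against 1.64 and 1.08 FPKM in control C. grandis roots. Roots of C. sinensis showed 2.95 and 3.23 FPKM in +Al roots, against 1.66 and 2.32 FPKM in control roots. Over both treatments it was lower in C. grandis, with a log2 difference of -1.53 (SE 0.36, limma adjusted p = 0.0084). Reads shared between such neighbouring carriers could be split by the counting, and this was not tested.

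Cs8g01190, annotated as phosphate transporter 4,6, had 9.38 and 11.2 FPKM in +Al C. grandis roots, against 14.8 and 15.2 FPKM in control C. grandis roots. Its C. sinensis levels were 25.3 and 26.2 FPKM in +Al roots, against 19.0 and 17.15 FPKM in control roots. The species differed in its response by -1.05 on the log2 scale (SE 0.22, limma adjusted p = 0.015), the only such call among the 9, where 13.5% of all genes tested were called. The call was lost when any library but +Al C. grandis replicate 2 was left out, with values between -1.18 and -0.92.

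Cs8g19980, annotated as phosphate transporter 4,1, had 4.30 and 7.26 FPKM in +Al C. grandis roots, against 5.13 and 5.82 FPKM in control C. grandis roots. Roots of C. sinensis showed 1.88 and 2.44 FPKM in +Al roots, against 2.80 and 2.72 FPKM in control roots. It was higher in C. grandis over both treatments by 1.15 (SE 0.21, limma adjusted p = 0.0022), and by 0.97, below the limit, without +Al C. grandis replicate 2. Cs8g19810, a probable chloroplast anion transporter, lay between 8.28 and 15.2 FPKM in the 8 libraries and was called in no comparison.

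**Figure D4:**
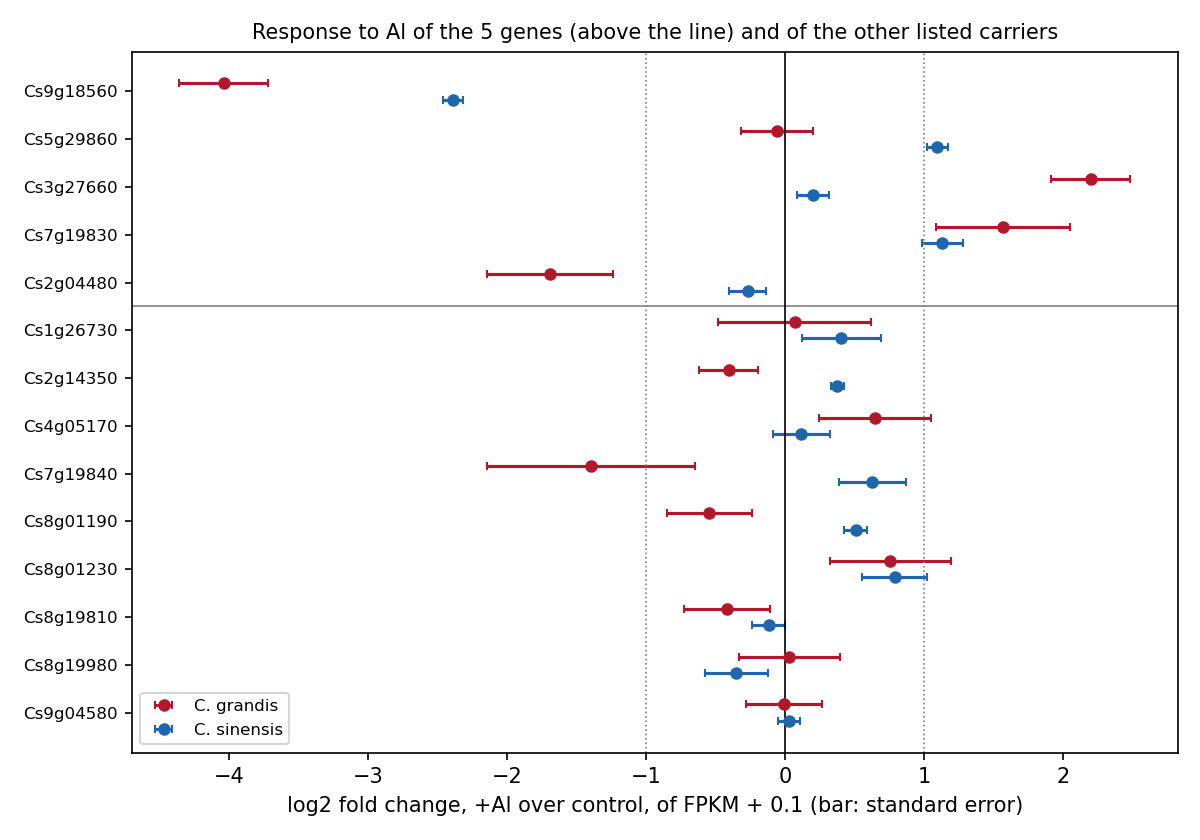
Response to Al (horizontal axis, log2 fold change of FPKM + 0.1, +Al over control) of the 5 genes, above the line, and of the 9 other listed genes tested, below it, in C. grandis and C. sinensis. Points are estimates, bars are standard errors and dotted lines mark the limit of 1. Cs9g18560 is lowest at -4.03 in C. grandis and Cs3g27660 highest at 2.20, and among the 9 others Cs7g19840 reaches -1.39 in C. grandis without being called. The 5 were chosen on this response and the 9 are those left over, so nothing is read from the contrast.

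SPX domain proteins sense Pi, and 3 of their genes were called higher with Al in C. grandis. In the list of Pi export and SPX genes, 8 of 17 matches are receptor kinases named EXS-like, and the test took in 9 genes for C. grandis and 8 for C. sinensis. Of these, 3 were called higher in +Al C. grandis roots and 1 in +Al C. sinensis roots, where 5.2% and 4.46% of all genes tested were called higher in these species. The median log2 change was 0.065 in C. grandis and -0.11 in C. sinensis, against -0.014 and -0.0019 over all genes. Cs4g17870 (SPX domain gene 2) had 568 and 790 FPKM in +Al C. grandis roots, against 65.85 and 57.3 FPKM in control C. grandis roots, a log2 change of 3.45 (SE 0.21, limma adjusted p = 1e-15). Its C. sinensis levels were 114.5 and 95.3 FPKM in +Al roots, against 35.3 and 36.1 FPKM in control roots, a log2 change of 1.55 (SE 0.096, limma adjusted p = 0.00037). The others called higher in C. grandis were orange1.1t00194, annotated as SPX domain-containing protein 3-like, by 3.14, and Cs7g05340 by 1.32. Both were also higher with Al in C. sinensis, without overlap, by less than the limit of 1. There orange1.1t00194 changed by 0.90 (SE 0.086, limma adjusted p = 0.0013) and Cs7g05340 by 0.48 (SE 0.066, limma adjusted p = 0.0040).

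In the list of Pi signalling and transporter trafficking 4 genes were tested, and 2 fell in C. sinensis while 0 were called in C. grandis, where 2 had an unadjusted p under 0.05 by limma, as had 26.4% of all genes. Over all genes tested 4.06% fell in C. sinensis. Cs2g06030 is annotated as a ubiquitin-conjugating enzyme E2 24-like, the family of PHO2. It had 18.0 and 29.3 FPKM in +Al C. grandis roots, against 24.8 and 20.2 FPKM in control C. grandis roots. Roots of C. sinensis showed 8.28 and 7.82 FPKM in +Al roots, against 21.0 and 22.2 FPKM in control roots, a log2 change of -1.41 (SE 0.090, limma adjusted p = 0.00040). The difference in response was 1.45 (SE 0.33, limma adjusted p = 0.022), and the call was lost when any library but a +Al C. grandis one was left out. The PHR1-like gene orange1.1t02259 fell by 1.02 in C. sinensis and had a change of -1.01 in C. grandis that was not called. The call of orange1.1t02259 in C. sinensis was lost without +Al replicate 2 (-0.77), control replicate 1 (-1.009) or control replicate 2 (-1.04).

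Genes on the keyword list for Pi release from organic pools were called in both species. The list holds purple acid phosphatases and ribonucleases, and also galactolipid synthases, which do not themselves release Pi. Of its genes, 26 were tested in each species. Among these, 9 rose and 1 fell in C. grandis, and 8 rose and 1 fell in C. sinensis. The sets were not the same, since Cs7g06070 was tested only in C. grandis and orange1.1t02668 only in C. sinensis. Over all genes tested, 5.2% rose and 7.25% fell in C. grandis, and 4.46% rose and 4.06% fell in C. sinensis. The median log2 change of the 26 tested in each species was 0.49 in C. grandis and 0.50 in C. sinensis, against -0.014 and -0.0019 over all genes. Cs4g05250, annotated as monogalactosyldiacylglycerol synthase 2, rose by 3.86 in C. grandis and by 1.32 in C. sinensis. Cs7g02530, annotated as purple acid phosphatase 27, fell by 4.12 in C. grandis and by 3.50 in C. sinensis. The ribonuclease T2 gene Cs7g03770 rose by 1.91 in C. grandis and by 1.48 in C. sinensis. Cs5g27880 (purple acid phosphatase 15) rose by 1.09 in C. grandis, and Cs8g08310 (purple acid phosphatase 10) rose by 1.18 in C. sinensis. The call of Cs5g27880 was lost without +Al C. grandis replicate 2 (0.83), control replicate 1 (1.16) or control replicate 2 (1.01). The purple acid phosphatase 17 gene orange1.1t02668 rose by 1.53 in C. sinensis and is listed at 0 in all C. grandis libraries, and its call was lost without either +Al C. sinensis library (1.39 and 1.66).

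Of 6 plastid phosphate translocators tested, 1 was called higher in C. sinensis (Cs2g05530, by 1.19), where 4.46% of all genes tested were called higher. In C. grandis 0 of the 6 were called, against 12.5% of all genes tested, and 2 had an unadjusted p under 0.05 by limma, against 26.4% of all genes. Cs2g05530 changed there by 0.88 (SE 0.33, limma adjusted p = 0.061), without overlap. Its difference in response was -0.31 (limma adjusted p = 0.48) and was not called. The median log2 change of these translocators was 0.42 in C. grandis and 0.31 in C. sinensis, against -0.014 and -0.0019 over all genes. Of 3 plasma membrane proton pumps tested, 1 fell in each species, where 7.25% of all genes tested fell in C. grandis and 4.06% in C. sinensis. This was Cs5g08370, with 1.52 and 0.901 FPKM in +Al C. grandis roots, against 33.8 and 33.1 FPKM in control C. grandis roots. It had 2.48 and 2.99 FPKM in +Al C. sinensis roots, against 13.4 and 15.3 FPKM in control C. sinensis roots. Its log2 change was -4.72 (SE 0.35, limma adjusted p = 1.4e-13) in C. grandis and -2.35 (SE 0.15, limma adjusted p = 0.00040) in C. sinensis. The other 2 pumps had higher mean levels in every group and were not called in either species. Cs4g03700, with group means of 103 to 156 FPKM, changed by 0.045 in C. grandis and 0.27 in C. sinensis. Cs6g20570, with group means of 48.3 to 67.2 FPKM, changed by 0.22 and -0.36.

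The genes with the pattern most like each of the 5 were found among 7945 described genes with at least 5 FPKM in a group, by the correlation of log2(FPKM + 0.1) over the 8 libraries. These libraries fall into 4 groups, so the correlation reflects differences between the groups as well as between replicates, and is a description only. For Cs9g18560 they were Cs7g05270 and Cs7g05280, both L-type lectin receptor kinases, at 0.998 and 0.995, and the glutathione S-transferase orange1.1t04722 at 0.997. For Cs5g29860 they were Cs8g20850 (laccase 3) at 0.998, Cs4g13070 (6-phosphofructokinase 3) at 0.995 and Cs3g25420 (thioredoxin H) at 0.993.

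For Cs3g27660 the most similar genes were Cs3g03640 (geranylgeranyl pyrophosphate synthase 1) at 0.996, Cs8g01200 (glutamate receptor 2) at 0.995 and Cs5g14840 (a cytochrome P450 of family 72) at 0.994. For Cs7g19830 they were Cs8g09800 (chalcone synthase) at 0.987, Cs6g09150 (ferritin, spelled ferretin in the files) at 0.981 and Cs6g21040 (protein SET) at 0.980. For Cs2g04480 they were orange1.1t05710 (polyubiquitin) at 0.983, Cs9g06110 (a heavy metal transport and detoxification protein) at 0.981 and Cs3g17780 (bHLH96-like) at 0.975.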

How the data were processed

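Root tips of 8 pools of 5 seedlings were sequenced. The authors cleaned the reads, removed ribosomal RNA, mapped both species to the C. sinensis genome with TopHat2 and derived the deposited FPKM values with Cufflinks. Per the submitters' notes, edgeR 3.0.0 under R 2.1.5 was also used. The genome build and mapping tool versions were not given in the sources used here. No genome or protein sequence was used.

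Since the files hold FPKM and no counts, limma 3.58.1 (R 4.3.3) replaced the study's count test, with trended variance on log2(FPKM + 0.1). Genes entered at a mean of 1 FPKM or more in any group compared. The pseudocount shrinks changes of low genes. Al responses used the 4 libraries of a species, and differences between species all 8. The species difference had been planned as a test of the 5 genes and is given for them without a p, since it includes the +Al libraries that chose them. The fit was tested on simulated data. Tables and figures came from Python 3.11.15 with matplotlib 3.10.9, numpy 2.4.6, pandas 2.3.3 and scipy 1.17.1.

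The 5 genes and the keyword lists were chosen with earlier results of these data known. Lists were matched to gene descriptions, which cover 43.0% of genes, so members can be missed. Named genes are the 5, genes of the Pi transporter list that were called or reached 5 FPKM, at most the 3 called genes with the highest FPKM of each other list, direction and species, and the 3 genes most similar to each of the 5. Cs8g01230, Cs4g03700 and Cs6g20570 were named after their values were seen. Close copies can share reads, and a value of 0 can be a failed estimate. Alternatives were rescaling by median ratios, other pseudocounts and filters, leaving out each library, and a replicate block. In the labels, replicate numbers mark no shared plant or batch.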

Additional observations from a re-analysis of the deposited data

Results flagged for a closer look

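These genes were flagged by their estimated difference in the response to Al between the species, whether or not it was called. The difference is C. grandis minus C. sinensis on the log2 scale. None of the 5 genes is among them because their response chose them. Cs8g01190 differed by -1.05 (limma adjusted p = 0.015), as tested by the difference in response itself. With 1 library left out this value lay between -1.18 and -0.92, on both sides of the limit. Cs2g14350 was lower with Al in both C. grandis libraries and higher in both C. sinensis ones, and its difference of -0.78 had a limma adjusted p of 0.0092, below the limit of 1 in size. Cs7g19840 also lay in opposite directions in the species, and its difference of -2.02 was not called (limma adjusted p = 0.095). With 1 library left out the difference of Cs7g19840 ranged between -2.79, called, without +Al C. grandis replicate 1 and -1.25, not called, without replicate 2.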

How the results depend on the processing

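Leaving out 1 library at a time gave 1322 to 1803 calls for Al in C. grandis (2326 with all libraries) and 1108 to 4144 calls for the difference in response (2720 with all), the last without +Al C. grandis replicate 1. Over the same fits, the other Pi transporters called numbered 1 to 2 between species (2 with all) and 0 to 1 for the difference in response (1 with all), and the other 5 lists had 4 to 14 calls in it (10 with all). The species difference of Cs9g18560 ranged between -0.092 and 0.62. At a mean of at least 5 FPKM, 3309 genes were called between species (4968 at 1 FPKM) and 1 of the other Pi transporters. With a pseudocount of 1, 0 of them were called between species and 0 for the difference in response, since the limma changes fell below the limit of 1 on that scale.

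Rescaling by median ratios together with leaving out a +Al C. grandis library was chosen after seeing the data. Without replicate 1 it gave 1 other Pi transporter called for Al in C. grandis, 4119 genes, 2 other Pi transporters and 16 genes of the other lists for the difference in response, and -0.12 for the species difference of Cs9g18560. Without replicate 2 it gave 1476 calls for Al in C. grandis, and of the other Pi transporters 1 between species and 0 for the difference in response. The cause was not tested.

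The deviations of same-numbered libraries correlated at 0.046 in C. grandis and -0.023 in C. sinensis over genes, so no strong shared shift was seen. With 2 libraries in a group this cannot decide whether same-numbered libraries shared a batch. A common replicate block gave 1719 calls for Al in C. grandis, 4974 between species and 2339 for the difference in response, and the call of Cs5g27880 for Al in C. grandis was lost with it (limma adjusted p = 0.066). A block for each species, chosen after seeing the data, gave 1684 calls for the difference in response, with 0 of the other Pi transporters and 6 genes of the other lists. With either block, 3 of the 5 genes were past the limits between species, and nothing is read from this. Of the 20158 genes tested, 4974 were called between species with the common block and 4967 with a block for each species.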
